A study of Mus musculus with 8 samples.

Results

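A stretch of 299 kb on mouse chromosome 10, from 75561076 to 75860277 of GRCm38, holds 7 genes described here: the theta-class glutathione S-transferase genes *Gstt1*, *Gstt2* and *Gstt3*, the tautomerase genes *Ddt* and *Mif*, and the gamma-glutamyltransferase genes *Ggt1* and *Ggt5*. They are 7 of 13704 genes with a read in either RNA-seq library of the study. They were selected because neighbouring genes had more reads in TRIM28-deficient than in wild-type (WT) T helper 17 (Th17) cells, so the difference between these libraries is what chose them. It is given below as a description, with no test.

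Glutathione S-transferases join glutathione, the main thiol of the cell, to reactive electrophiles so that these can be exported. The theta class is an old branch of the family and acts on small halogenated compounds and peroxides. Gamma-glutamyltransferases sit on the outer face of the plasma membrane and cut glutathione and its conjugates, the first step in recovering their amino acids. GGT1 is the main such enzyme, and GGT5 is best known for turning leukotriene C4 into leukotriene D4. MIF is a cytokine that T cells and macrophages store and release, and DDT (D-dopachrome tautomerase) is its close homolog. Both bind CD74 and keep a tautomerase site.

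Both libraries came from naive CD4+ T cells of C57BL/6 mice. The cells were stimulated with plate-bound anti-CD3 and anti-CD28. They were kept for 3 days in medium with TGF-β (0.5 ng/ml) and IL-6 (20 ng/ml) to become Th17 cells, then re-stimulated through anti-CD3. The genotypes were wild type and TRIM28fl/flxCD4cre (KO), in which Cre driven by the *Cd4* promoter deletes *Trim28*, a chromatin co-regulator, in T cells. There was 1 library per genotype, the number of mice behind each is not given in the sources used here, and no difference below has a replicate check. In bulk RNA, more cells of a kind and more RNA per cell cannot be told apart.

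The deposited tables give the number of reads assigned to each gene, in all about 6.7e+06 for WT and 6.2e+06 for KO. CPM is the count scaled to a library of 1000000 reads (1 read is 0.15 CPM in WT and 0.162 CPM in KO), RPKM is the CPM per kilobase of the longest annotated transcript, and fold changes are KO over WT with 0.5 added to each count. Intervals are exact 95% intervals and cover counting error only. *Trim28* itself had 4485 reads in WT and 180 in KO, a log2 fold change of -4.53 (-4.76 to -4.32). Of 11 T and Th17 cell markers, 9 had at least 10 reads. Of these 9, 2 were at least 2-fold lower in KO, as were 7.94% of all genes with at least 10 reads. T cell genes were abundant in both libraries (*Cd4* 7904 and 6598 reads, *Cd3e* 4407 and 4778), though *Trac* and *Trbc2* were not listed, and the Th17 cytokine genes *Il17a* (2226 and 381) and *Il17f* (3143 and 345) were the 2 lower ones.

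The cluster falls into an upstream pair and a downstream group. *Ggt1* (75561076 to 75586193) and *Ggt5* (75589327 to 75617200) lie on the plus strand, 3133 bases apart. *Susd2* and the large gene *Cabin1* follow. Then, all on the minus strand, come *Ddt* (75771233 to 75773374), *Gstt3* (75774117 to 75781422), *Gstt1* (75783813 to 75798584), *Gstt4*, *Gstt2* (75831842 to 75837419) and *Mif* (75859353 to 75860277). *Ddt* and *Gstt3* lie 742 bases apart, *Gstt3* and *Gstt1* 2390, and *Gstt2* and *Mif* 21933. The longest curated RefSeq transcripts have 5 exons for *Gstt1* and *Gstt2*, 6 for *Gstt3*, 3 for *Ddt* and *Mif*, 15 for *Ggt1* and 12 for *Ggt5*.

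The 250 bases before an annotated start are shown for the 4 genes of the minus-strand group that have such a window outside exons, because they are neighbours whose read counts differed between the libraries by unequal amounts. Sequences are from RefSeq on GRCm38.p6 and run 5′ to 3′ on the minus strand. Capitals mark matches to 6 searched motifs, on either strand. These were the antioxidant response element core TGACNNNGC, the xenobiotic response element core GCGTG, the interferon-gamma activated site TTCNNNGAA, the ROR element core AGGTCA, the CCAAT box and the TATA box TATAAA. The *Gstt1* window precedes a downstream start at 75797731, inside an intron of the longer transcript.
Gstt1, chr10:75797732-75797981: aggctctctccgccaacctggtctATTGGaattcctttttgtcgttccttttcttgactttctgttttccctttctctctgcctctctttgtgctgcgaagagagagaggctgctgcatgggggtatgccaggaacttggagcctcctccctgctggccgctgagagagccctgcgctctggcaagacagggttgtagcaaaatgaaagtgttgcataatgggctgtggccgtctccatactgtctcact
Gstt3, chr10:75781423-75781672: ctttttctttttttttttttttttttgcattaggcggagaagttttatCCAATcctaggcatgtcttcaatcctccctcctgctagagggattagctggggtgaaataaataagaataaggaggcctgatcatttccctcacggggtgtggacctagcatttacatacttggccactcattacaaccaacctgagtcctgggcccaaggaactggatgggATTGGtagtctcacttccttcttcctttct
Ddt, chr10:75773375-75773624: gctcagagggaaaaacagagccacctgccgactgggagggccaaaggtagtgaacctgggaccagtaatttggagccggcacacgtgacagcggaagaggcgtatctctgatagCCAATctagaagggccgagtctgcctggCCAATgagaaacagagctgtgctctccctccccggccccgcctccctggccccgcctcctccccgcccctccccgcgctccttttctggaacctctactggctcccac
Mif, chr10:75860278-75860527: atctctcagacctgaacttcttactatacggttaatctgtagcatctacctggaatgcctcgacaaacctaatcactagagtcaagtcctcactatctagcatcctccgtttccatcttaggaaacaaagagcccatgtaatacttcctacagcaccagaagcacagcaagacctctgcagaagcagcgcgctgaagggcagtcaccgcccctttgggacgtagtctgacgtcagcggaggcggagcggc

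CCAAT was the motif matched in the *Gstt1*, *Gstt3* and *Ddt* windows, and no searched motif was matched in the *Mif* window. *Ddt* held CCAAT at 136 to 132 and at 108 to 104 bases before its start. *Gstt3* held it at 202 to 198 and, on the other strand, at 30 to 26 bases before. *Gstt1* held it on the other strand, at 226 to 222 bases before. CCAAT occurs in 33.8% of the 32851 windows of all genes in the table, so matches in 3 of these windows are a description only. The *Ddt* window was the richest of the 4 in G and C (62.8%, with 12 CG pairs, against medians of 52.4% and 6 pairs over all windows), and the *Gstt3* window the poorest (43.6%, 2 pairs). *Ggt1* has 4 windows, for alternative starts. The first overlaps an exon, and it holds CCAAT and the ROR element core. CCAAT and the antioxidant response element core (10.2% of all windows) each occur in 2 of the 4 windows. The ROR element core (14% of all windows) and the TATA box (12.4%) each occur in 1. *Gstt2* and *Ggt5* have none in the table.

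All 7 genes had a higher CPM in the KO library, and 6 of the 7 were at least 2-fold higher. The same held for 3.75% (408) of the 10881 genes whose reads summed to at least 10. Since the cluster was chosen on this difference, the gap between these shares shows how it was chosen and nothing more. None of the 7 was at least 2-fold lower, against 7.94% of all genes with at least 10 reads. The median log2 fold change of the 7 was 2.40, beside -0.02 over all 10881 genes. All 7 passed the minimum of 10 reads, *Ggt1* only through its KO reads.

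*Gstt1* had 42 reads in WT and 236 in KO, or 6.32 and 38.2 CPM, a log2 fold change of 2.58 (2.12 to 3.10). Of all genes with at least 10 reads, 42 had a higher log2 fold change. *Gstt3* was alike, with 52 and 274 reads, 7.82 and 44.3 CPM and a log2 fold change of 2.49 (2.07 to 2.96). *Gstt2*, the most abundant transferase of the cluster in WT cells, had 312 and 914 reads, which is 46.9 and 148 CPM and gives a log2 fold change of 1.65 (1.47 to 1.85). The counting interval of *Gstt2* lies below those of *Gstt1* and *Gstt3*, whose own intervals overlap over most of their width. *Gstt2* therefore made up 76.8% (Wilson 95% interval 72.5 to 80.7) of the reads of these 3 genes in WT and 64.2% (61.7 to 66.6) in KO. Together the 3 genes went from 406 to 1424 reads, a 3.77-fold difference.

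Of the tautomerase genes, *Mif* had the higher level and *Ddt* the higher fold. *Ddt* had 323 reads in WT and 1161 in KO, or 48.6 and 188 CPM, a log2 fold change of 1.95 (1.77 to 2.13). *Mif* had 4460 and 6953 reads, or 671 and 1124 CPM, a log2 fold change of 0.75 (0.69 to 0.80). *Mif* was thus the gene with by far the most reads in the cluster and the only one under 2-fold, at 1.68-fold. In absolute terms its difference was the largest of the 7, 453 CPM against 139 for *Ddt* and 101 for *Gstt2*. *Mif* made up 85.7% (84.8 to 86.7) of the cluster's reads in WT and 72.4% (71.5 to 73.3) in KO, and *Ddt* 6.21% (5.59 to 6.9) and 12.1% (11.4 to 12.8). The summed level of the 7 genes was 782 CPM in WT and 1553 CPM in KO, 1.99-fold, and without *Mif* it was 3.84-fold higher in KO.

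The gamma-glutamyltransferase genes were near the limit of detection in WT cells. *Ggt5* had 10 reads in WT and 51 in KO, or 1.5 and 8.25 CPM, a log2 fold change of 2.40 (1.46 to 3.60). *Ggt1* had 3 reads in WT, the smallest count taken here as shown (0.451 CPM), and 18 in KO (2.91 CPM). The plain ratio of its scaled counts was 6.45, with an interval from 1.88 to 34.2. With 0.5 added to each count, *Ggt1* was 5.68-fold and *Ggt5* 5.27-fold higher in KO, beside 5.98-fold for *Gstt1* and 5.62-fold for *Gstt3*. With 5 added, the log2 fold change of *Ggt1* was 1.63 in place of 2.51, so the counts behind it place the ratio only within wide limits. Together the pair went from 13 to 69 reads.

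**Figure D1:**
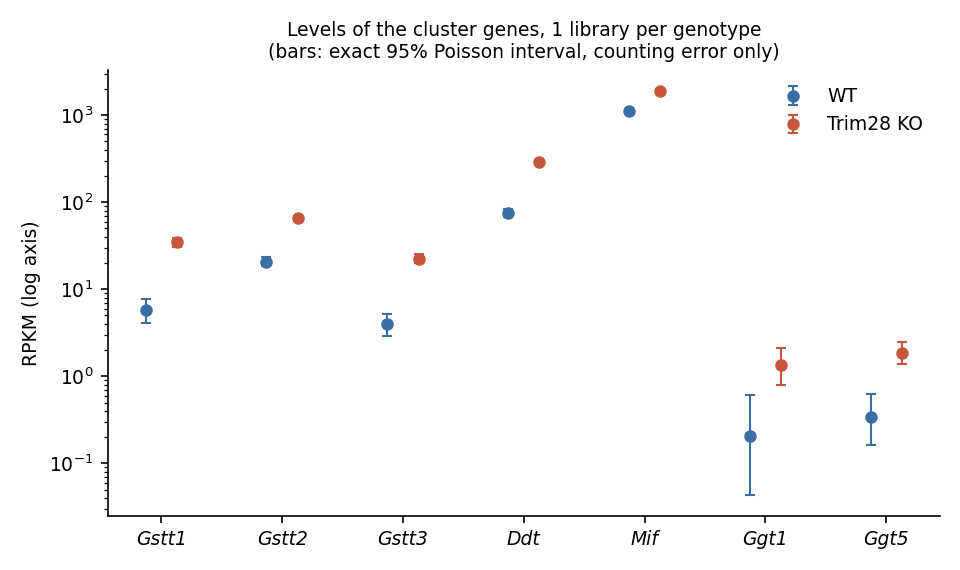
Level of each cluster gene in RPKM (log axis) in the WT (blue) and *Trim28* KO (red) library, 1 library each, with exact 95% Poisson intervals for counting error. The KO point lies above the WT point for all 7 genes, and levels span from 0.208 RPKM (*Ggt1*, WT) to 1874 RPKM (*Mif*, KO).

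Per kilobase, the order of levels was the same in both libraries. In WT it ran from *Mif* (1118 RPKM) through *Ddt* (74.8), *Gstt2* (20.8), *Gstt1* (5.72), *Gstt3* (3.94) and *Ggt5* (0.341) to *Ggt1* (0.208). In KO the levels were 1874, 289, 65.6, 34.5, 22.3, 1.87 and 1.34 RPKM in that order. Neighbours in this order were apart beyond counting error except *Gstt1* and *Gstt3* in WT (4.12 to 7.73 and 2.94 to 5.17 RPKM) and *Ggt5* and *Ggt1* in both libraries. The order of *Ddt* and *Gstt2* also depends on the transcript: with the shortest annotated transcript of each gene, *Gstt2* had 113 and *Ddt* 84.6 RPKM in WT, and 355 and 327 in KO. That of *Gstt1* and *Gstt3* rests on transcript length too. In KO, *Gstt1* had 38.2 and *Gstt3* 44.3 CPM, and with the shortest transcripts 81.5 and 73.8 RPKM.

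The genes that lie among the 7 differed from each other. *Cabin1*, which encodes a calcineurin-binding inhibitor and fills most of the gap between *Ggt5* and *Ddt*, had 1811 reads in WT and 2073 in KO, a log2 fold change of 0.30 (0.21 to 0.39). *Susd2*, on its far side, had 0 and 6 reads, 2.15-fold higher in KO when 3 reads are put in place of 0. Its exact log2 interval runs from 0.34 with no upper limit. *Gstt4*, the remaining theta-class gene, lies between *Gstt1* and *Gstt2* and had 1 and 7 reads. Its ratio of 7.53 has an interval from 0.967 to 339. Neither *Susd2* nor *Gstt4* had 10 reads, so neither entered the counts.

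From 500 kb before the cluster to 500 kb after it there were 43 other annotated genes, *Cabin1*, *Susd2* and *Gstt4* included. Of these, 22 had a read and 15 had at least 10, and of these 15 none was at least 2-fold higher (3.75% of all genes were), 2 were at least 2-fold lower (7.94% of all genes were) and 13 were within 2-fold. Their median log2 fold change was 0.02. In 15 genes, a count of 0 higher lies near the share over all genes. The cluster was chosen because neighbours were higher, so the genes left outside it were in part set apart by that choice. On the *Ggt1* side, *Lrrc75b* (listed under its older name *Fam211b*) had 3 and 2 reads. *Snrpd3*, a core spliceosome protein gene, had 433 and 538, and *Gucd1* had 316 and 303. *Upb1*, an enzyme gene of pyrimidine breakdown, had 9 and 0, 2.79-fold lower in KO with 3 reads in place of 0. Its exact log2 interval has no lower limit and ends at -0.88. *Adora2a*, an adenosine receptor gene that restrains T cells, had 393 reads in WT and 123 in KO, a log2 fold change of -1.57 (-1.88 to -1.28), and *Bcr* (417 and 394) and *Specc1l* (11 and 8) lay farther out. *Gm5779*, on the same side, had 1 and 0 reads.

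On the *Mif* side the next gene, *Derl3*, had 58 and 54 reads (log2 fold change 0.00), and *Smarcb1*, a core subunit of the SWI/SNF remodeling complex, had 47 and 51. *Mmp11*, a metalloproteinase gene, had 26 and 42 (0.79, from 0.06 to 1.56). *Chchd10*, which encodes a mitochondrial protein, had 209 reads in WT and 384 in KO, with a log2 fold change of 0.98 (0.74 to 1.23). It lay just under the 2-fold limit, and scaling by TMM put it over. Its fold was thus larger than that of *Mif*, which counts among the 7, while its difference in CPM (31.4 in WT and 62.1 in KO) was smaller. *Gm5134* had 8 and 2 reads (-1.66, from -5.17 to 0.43). *Zfp280b* (556 and 526), *Prmt2* (26 and 19), *Dip2a* (153 and 131) and *Pcnt* (10 and 11) were within 2-fold, and *Gm867* and *Vpreb3* had no more than 1 read in a library.

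**Figure D2:**
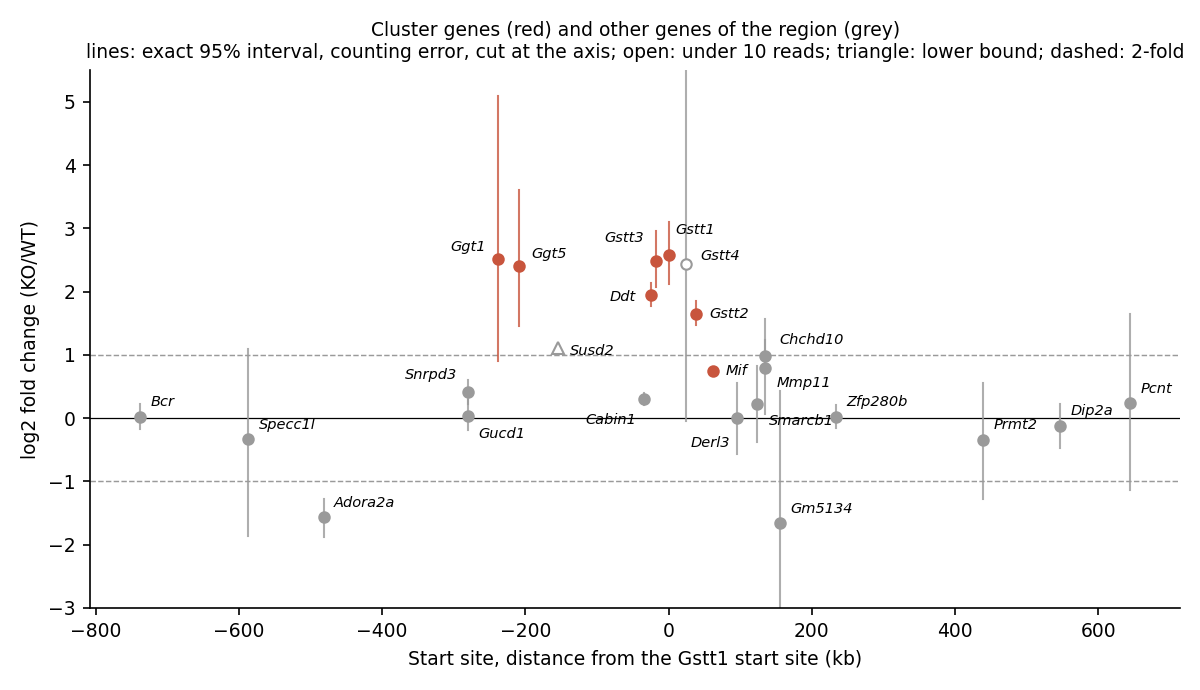
Log2 fold change (KO/WT) of the cluster genes (red) and of the other genes of the region with at least 10 reads (grey), plotted by the distance of the start site from that of *Gstt1* in kb. Lines are exact 95% intervals for counting error, and open symbols have fewer than 10 reads. The triangle for *Susd2*, labelled a lower bound, is its ratio with 3 WT reads in place of 0. The filled red points other than *Mif* lie between 1.65 and 2.58, and no other filled point is past the upper dashed line at 2-fold. The choice of the cluster in part set this contrast.

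To describe how often neighbours moved alike elsewhere, the 10834 genes with a position and at least 10 reads were put in order along each chromosome. There were 3 runs of 3 or more successive genes that were all at least 2-fold higher in KO. *Ddt*, *Gstt3*, *Gstt1* and *Gstt2* formed a run of 4 genes over 66 kb. The cluster was chosen because neighbours were higher together in these libraries. Its presence among the runs, under any setting, therefore follows from the choice and adds no evidence. The other 2 runs, of 3 and 5 genes, were replication-dependent histone genes on chromosome 13. Every gene of the chromosome 10 run had at least 278 reads in all, while the lowest totals in the histone runs were 24 and 10. With a minimum of 50 reads, the run from *Ddt* to *Gstt2* was the 1 run left. With no minimum but 1 read there were 17 runs, in which *Gstt4* joined the run and *Susd2* made a run of 3 with *Ggt1* and *Ggt5*. At a limit of 1.5-fold there were 20, and *Mif* joined.

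The genes whose levels in the 2 libraries were nearest to those of *Gstt1*, among genes with at least 50 reads, were *Gstt3* (distance 0.373 on the log2 CPM scale), *Pltp* (0.390), *Lgals7* (0.398), *Grb7* (0.552) and *Fam101b* (0.574). Of these, *Gstt3* is the neighbour, and the others lie on chromosomes 2, 7 and 11. *Pltp*, a phospholipid transfer protein gene, had 43 reads in WT and 309 in KO. The likeness rests on 2 values per gene.

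Fold changes in these libraries moved with transcript length. Their rank correlation with length was -0.37 (Spearman's rho, n = 10792 genes, which are not independent replicates). In the tenth of genes with the shortest transcripts the median log2 fold change was 0.29 and 7.31% of genes were at least 2-fold higher, against -0.44 and 1.67% in the tenth with the longest. *Mif* (600 bases) and *Ddt* (649 bases) are short. With a loess curve of this relation taken off, the log2 fold change was 0.40 for *Mif* and 1.61 for *Ddt*, 2.32 for *Gstt1*, 2.33 for *Gstt3*, 1.52 for *Gstt2*, 2.37 for *Ggt1* and 2.53 for *Ggt5*. The same 6 genes stayed at least 2-fold higher and all 7 stayed above 0. The part of length in the remaining difference of *Mif* was not tested.

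**Figure D3:**
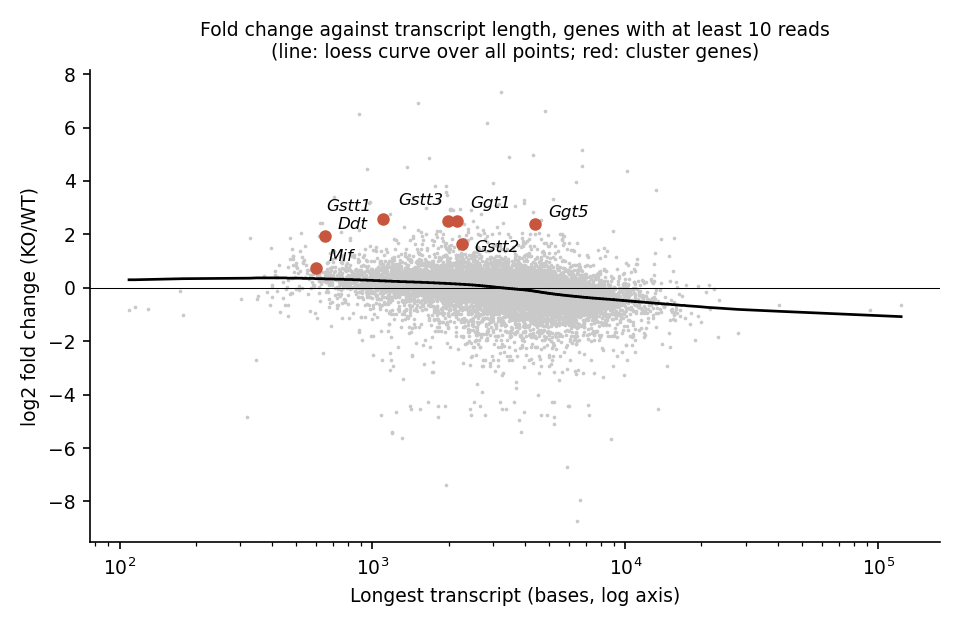
Log2 fold change (KO/WT) against the length of the longest annotated transcript (bases, log axis) for 10792 genes with at least 10 reads (grey), with the loess curve over all of them (line) and the cluster genes (red). The curve stands between -0.13 and 0.34 at the lengths of the cluster genes, and each red point lies above it.

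Reads can also fall on more than 1 annotated place. Of all stretches of 50 bases in the longest *Mif* transcript, 44.1% occur elsewhere in the genome, on 5 chromosomes, and the transcripts that share some include the pseudogene *Mif-ps3*. No stretch of *Gstt1*, *Ggt1*, *Ggt5* or *Ddt* does, and 4.31% of those of *Gstt2* and 0.62% of those of *Gstt3* do. No 50-base stretch is shared between any pair of the 7 genes. The longest exact match between transferase transcripts was 26 bases, between *Gstt2* and *Gstt3*, so an exactly matching read of 50 bases tells them apart. *Ddt* shares 30.5% of its stretches with *Gm20441*, an annotated transcript that spans *Ddt* and *Gstt3* and that neither count table lists. The read length and the treatment of such reads are not given in the sources used here, and their effect on the counts was not tested.

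Outside the cluster, no glutathione S-transferase gene with at least 10 reads was at least 2-fold higher (3.75% of all genes were). Among so few genes, a count of 0 lies near that share. *Gstm2*, with 0 and 2 reads, did not enter. The list held 25 genes and was wider than its name, with *Ptges*, *Ltc4s* and *Alox5ap* among them. Those with reads all lie on other chromosomes. Of the 25, 10 had at least 10 reads and 2 of these were at least 2-fold lower (7.94% of all genes were), *Gstm5* (11 and 3 reads) and the prostaglandin E synthase gene *Ptges* (9 and 3). Their median log2 fold change was -0.02. The most abundant were the pi-class genes *Gstp1* (291 and 417 reads, log2 fold change 0.62, from 0.40 to 0.84) and *Gstp2* (96 and 123) and the omega-class gene *Gsto1* (298 and 277, 0.00).

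Genes of the gamma-glutamyl cycle make, recycle and break down glutathione. Their list held 21 genes and was wider than the cycle, with the glyoxalase genes *Glo1* and *Hagh* in it. Of 15 with at least 10 reads, 2 were at least 2-fold higher (13.3%, beside 3.75% of all genes). Of the same 15, 1 was at least 2-fold lower (7.94% of all genes were), and the median log2 fold change was 0.20. The count of higher genes was 0 with 5 added to each count, 3 with a minimum of 1 read, and 1 with a minimum of 50 reads or with the length or GC correction. The higher genes were *Oplah*, encoding 5-oxoprolinase (19 and 36 reads, log2 fold change 1.01, from 0.19 to 1.91), and *Hagh*, encoding a glyoxalase that releases glutathione (14 and 29 reads, 1.13, from 0.19 to 2.19). The lower was the dipeptidase gene *Dpep2* (48 and 16 reads, -1.45, from -2.40 to -0.64). The genes with the most reads were the dipeptidase gene *Cndp2* (1564 and 1785), *Gsr*, encoding glutathione reductase (856 and 1159), and the conjugate exporter gene *Abcc1* (394 and 411). *Ggt7*, a paralog of *Ggt1* and *Ggt5* named here after its values were seen, had 394 and 310 reads, and *Ggt6* was not listed.

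NRF2 is the factor that induces many glutathione genes. *Gclc*, *Gclm*, *Gsr*, *Abcc1* and *Slc7a11* of the gamma-glutamyl cycle list are also in the list of NRF2 targets. That list held 24 genes and was wider than its name, with *Nfe2l2*, the gene of NRF2, and *Keap1*, the gene of its inhibitor, in it. All 19 with at least 10 reads were within 2-fold. Of all genes with at least 10 reads, 3.75% were at least 2-fold higher and 7.94% at least 2-fold lower. Among 19 genes, a count of 0 higher lies near the share over all genes. The median log2 fold change of the 19 was 0.20, beside -0.02 over all genes, and it was 0.25 with the length correction. The most abundant were *Ftl1* (3878 and 5387 reads, log2 fold change 0.58), *Tkt* (3468 and 4329, 0.42) and *Txn1* (2570 and 4125, 0.79). With the length correction these were 0.30, 0.42 and 0.52. *Nqo1* had 1 and 0 reads, and *Fth1*, an abundant ferritin gene with many processed copies, 0 and 1. The genes for the receptors and a binding partner of MIF numbered 6, of which 5 had at least 10 reads, with a median log2 fold change of -0.36. None was at least 2-fold higher (3.75% of all genes were), which among 5 genes lies near that share. *Cxcr4* was at least 2-fold lower (502 and 229 reads, -1.03, from -1.26 to -0.80), as were 7.94% of all genes. *Cd74*, the receptor chain shared by MIF and DDT, had 56 and 42 reads, and *Cxcr2* 57 and 28.

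**Figure D4:**
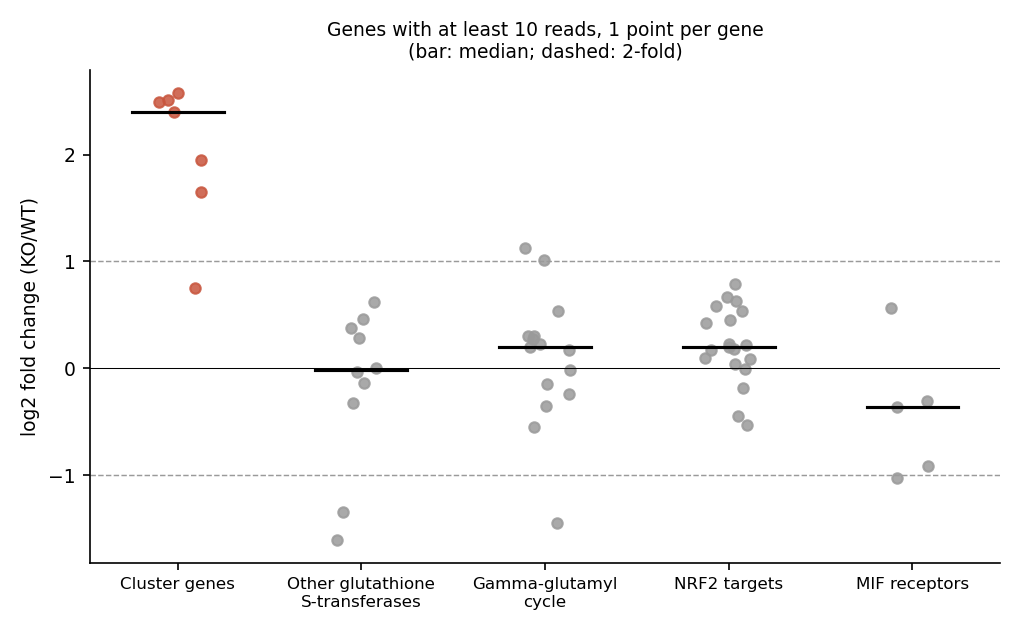
Log2 fold change (KO/WT) of the cluster genes (red) and of the genes with at least 10 reads in 4 related lists (grey), 1 point per gene, with medians as bars and 2-fold limits dashed. The medians are 2.40 for the cluster, -0.02 for the other glutathione S-transferases, 0.20 for the gamma-glutamyl cycle and for NRF2 targets, and -0.36 for MIF receptors.

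None of the lists of markers of other cells had a summed level that was 2-fold higher in KO. The summed level of 9 macrophage and monocyte markers was 4.21 CPM in WT and 4.37 in KO (28 and 27 reads, with *Lyz2*, *Csf1r*, *Adgre1*, *C1qa* and *C1qb* at 0 in both). It was 45 and 40.6 CPM for 7 dendritic cell markers, most of it *H2-Ab1* (275 and 222 reads). Of these, *Flt3* was at least 2-fold lower (11 and 4 reads, log2 interval -3.46 to 0.40). *Zbtb46* (0 and 7) and *Itgax* (0 and 4) were higher but under 10 reads. The summed level was 11.9 and 13.4 CPM for 6 CD8 T and NK cell markers, of which *Prf1* (22 and 48 reads, 0.47 to 2.03) was at least 2-fold higher. *Cd8b1* (52 and 27 reads), the one with the most reads, had a log2 fold change of -0.83 (-1.57 to -0.14). For 5 B cell markers the sum was 12.5 and 7.11 CPM. Of these, *Cd79a* (20 and 8 reads, log2 interval -2.61 to 0.03) and *Cd79b* (15 and 2, -5.97 to -0.70) were at least 2-fold lower. None of 8 erythroid and platelet markers was listed.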

How the data were processed

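RNA-seq was done on 2 libraries, WT and *Trim28* KO Th17 cells. The 6 ChIP-seq and input samples of the series were not analysed here. The authors mapped reads to mm10 with SOAP2 and deposited, for each gene, the count of reads assigned to it uniquely, not normalized. The submitters' processing notes name bcl2fastq, HTSeq, Bowtie and SICER 1.1 without roles. The counting program, annotation and strand are not given in the sources used here. Genes without reads are not listed, and a gene listed for 1 library was given 0 reads in the other.

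Counts were scaled to library totals (about 6.7e+06 and 6.2e+06 reads), and genes needed at least 10 reads over both libraries to enter counts. With 1 library per genotype no test was made. Intervals are Clopper-Pearson for folds, Poisson for levels and Wilson for shares. Positions are from RefSeq on GRCm38.p6, the assembly of mm10, and transcript lengths from GENCODE M21. A current symbol was found for 12840 of 13704 names and an unambiguous former symbol for 804. The members and gene lists were chosen with earlier results of these data known. Named genes are the members, every gene within 500 kb with a read, the 2-fold genes and the 3 with the most reads of each list, *Trim28* and the 5 genes nearest to *Gstt1*.

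Alternatives were TMM (edgeR 4.0.16), DESeq2 1.42.0 size factors, upper-quartile scaling, a total without the 10 genes with the most reads, 5 added to each count, minimums of 1 and 50 reads, loess curves (span 0.3, statsmodels 0.14.6) against length or GC content, a 1.5-fold limit and other transcript lengths. Python 3.11.15, SciPy 1.17.1 and R 4.3.3 were used, and the calculations were tested on simulated data.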

Additional observations from a re-analysis of the deposited data

How the results depend on the processing

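No paired analysis was possible because there was 1 library per genotype. The count of cluster genes at least 2-fold higher was 6 under every alternative run except a minimum of 50 reads, where *Ggt1* was left out and it was 5, and the 1.5-fold limit, where *Mif* joined and it was 7. None was at least 2-fold lower, and all 62 values of single cluster genes stayed above 0. The genes were chosen as higher in these same libraries, so these counts and signs follow largely from the choice and add no evidence. Of the 62 values, 3 left their counting interval: *Ddt* (1.61) and *Mif* (0.40) with the length correction and *Mif* (0.62) with the GC correction. The median log2 fold change of the cluster was 1.93 with 5 added to each count, 2.17 with a minimum of 50 reads and 1.95 over the 5 genes with at least 100 reads, a setting chosen, like the curated RefSeq transcript lengths, after seeing the data. Other scalings moved log2 fold changes by at most 0.02.

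Counts of genes at least 2-fold higher changed as follows. Other genes of the region numbered 1 with TMM, 2 with a minimum of 1 read and 2 at 1.5-fold, against 0. Other glutathione S-transferases numbered 1 with a minimum of 1 read and 1 at 1.5-fold, against 0, and NRF2 targets 2 and 3, against 0. Gamma-glutamyl cycle genes numbered 0 with 5 added to each count, 3 with a minimum of 1 read, and 1 each with a minimum of 50 reads, the length correction and the GC correction, against 2. Over all genes, 262 were higher and 551 lower with 5 added to each count, 1152 and 2012 with a minimum of 1 read, 167 and 373 with 50 reads, and 1170 and 1927 at 1.5-fold, against 408 and 864. The other settings gave 385 to 429 higher and 731 to 871 lower. Runs of neighbours numbered 2 with 5 added to each count, 17 with a minimum of 1 read, 1 with 50 reads, 5 with the length correction and 20 at 1.5-fold, against 3. Fewer or more genes entered under the other minimums by construction, and otherwise the cause was not tested. With 1 library per genotype, depth limits *Ggt1*, *Ggt5*, *Gstt4* and *Susd2* most.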
